A study of Mus musculus with 6 samples.

Results

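The genes of the lysosome described here are 35 named hydrolases, luminal helpers and membrane proteins, cathepsins left out, and every gene whose symbol marks it as a subunit or accessory protein of the vacuolar proton pump (V-ATPase, symbols beginning Atp6v or Atp6ap). They came to 55 of the 13839 genes analysed, with 25 hydrolases, 3 luminal proteins that are not enzymes, 7 membrane proteins and 20 V-ATPase genes. They were chosen by name and function, but with earlier results of these data known, so the counts below are descriptions of that set. RNA was sequenced from a leukaemia line of the mouse, MLL-ENL-ERtm, classed in the labels as acute monocytic leukaemia, which carries the fusion oncogene MLL-ENL joined to a modified estrogen receptor domain. The control cells had received a retroviral scramble, non-specific short hairpin RNA (shNS, 3 libraries), and the knockdown cells a retroviral hairpin against Tet1 (shTet1, 3 libraries). Both groups were selected with puromycin and adapted to SILAC medium, so selection and medium were shared. All libraries come from this 1 cell line. The labels do not say whether the libraries of a group were grown apart, so each p-value reflects library-to-library spread alone, and that spread may be technical.

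Lysosomes are the acidic compartments in which cells break down material taken in from outside and their own worn parts. Soluble hydrolases, each cutting a particular bond in glycans, lipids or proteins, work in the lumen, heavily glycosylated membrane proteins line the limiting membrane, and the V-ATPase pumps the protons that keep the lumen acidic. The pump has a peripheral V1 sector that splits ATP and a membrane V0 sector that carries the protons. In macrophages and other phagocytes lysosomes digest engulfed particles, and many lysosomal genes are bound by the transcription factors TFEB, TFE3 and MITF at a short palindromic element of the E-box type, known as the CLEAR element.

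The genes analysed held between 15873632 and 18592139 reads per library. Tet1, the targeted gene, had levels of 0.489, 0.392 and 0.446 FPKM in the shNS libraries, in the order of replicates 1, 2 and 3 kept throughout, and 0.0982, 0.155 and 0.139 FPKM in the shTet1 libraries. FPKM is a level corrected for transcript length and library depth. The knockdown mean was 29.6% of the control mean, on 25 to 39 reads per library against 93 to 128. Changes below are limma estimates on log2(FPKM + 1), shTet1 against shNS, with their standard errors, and a gene rose or fell where its Benjamini-Hochberg adjusted p over 11646 tested genes was under 0.05. Over all tested genes the median log2 change was −0.13 (−0.01 after median-of-ratios scaling), and each class below is also given relative to that median.

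Promoter sequences are shown first, for the E-box that some members share. RefSeq promoter windows (GRCm38.p6, 250 bases before to 50 bases after each annotated start) were matched for 44 of the 55 members. The hexamer CACGTG, which is its own reverse complement, was found in 13 of those 44 members (29.5%), against 8.09% of 27025 genes with such a window and 11.9% of 9154 tested genes. In all 13 it was flanked by a T before or an A after it, giving TCACGTG on either strand, which 4.29% of all genes and 7.13% of tested genes had. The longer palindrome TCACGTGA, which contains both shorter motifs, was found in 6 members (13.6%), against 1.12% of all genes and 2.31% of tested genes. These 6 were Atp6v0d1, Atp6v0e, Atp6v1a, Gla, Cln3 and Mcoln1, and the other 7 with TCACGTG were Atp6v0b, Arsa, Gaa, Glb1, Naglu, Sgsh and Lamp1. The stretches of 30 bases around the longer palindrome are printed 5′ to 3′ on the strand of the gene, with CACGTG in capitals:
Atp6v0d1 (chr8:105566050-105566079, minus strand): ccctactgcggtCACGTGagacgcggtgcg
Atp6v0e (chr17:26676387-26676416, plus strand): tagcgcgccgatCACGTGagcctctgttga
Atp6v1a (chr16:44139373-44139402, minus strand): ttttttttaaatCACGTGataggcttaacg
Gla, nearer site (chrX:134601182-134601211, minus strand): tgagatctcggtCACGTGagcaactctcgg
Gla, farther site (chrX:134601215-134601244, minus strand): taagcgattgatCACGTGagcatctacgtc
Cln3 (chr7:126583340-126583369, minus strand): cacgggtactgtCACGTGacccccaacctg
Mcoln1 (chr8:3500462-3500491, plus strand): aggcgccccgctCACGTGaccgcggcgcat

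Lamp1 had the most matches of any member, with 4 copies of CACGTG whose centres lay at −58, −42, −25 and −12 bases from the annotated start, and its whole window is shown for that reason, again with CACGTG in capitals:
Lamp1 (chr8:13158911-13159210, plus strand): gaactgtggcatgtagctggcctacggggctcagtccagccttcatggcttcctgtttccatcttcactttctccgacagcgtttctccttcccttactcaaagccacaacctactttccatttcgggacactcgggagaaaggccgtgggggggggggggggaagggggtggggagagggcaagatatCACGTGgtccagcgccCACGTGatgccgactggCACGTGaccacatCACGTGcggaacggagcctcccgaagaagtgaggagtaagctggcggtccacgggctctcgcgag

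**Figure D1:**
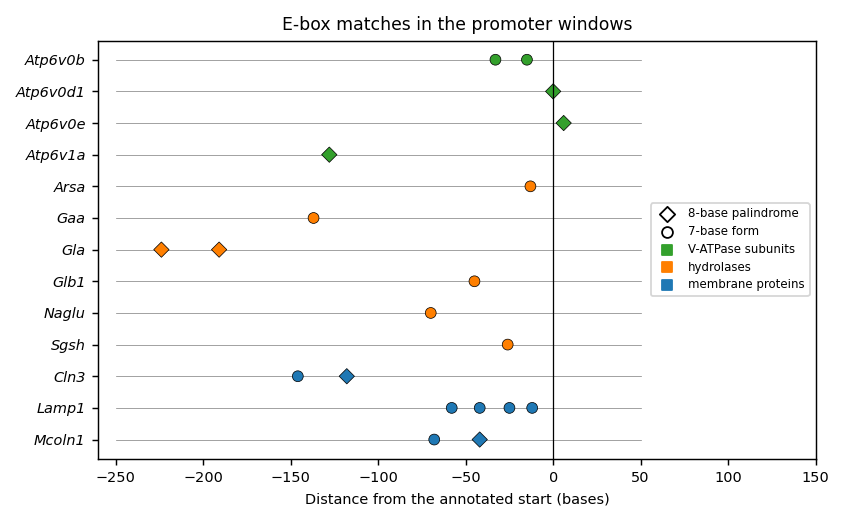
Position of each CACGTG match in the promoter windows of the 13 members that had at least 1, in bases from the annotated RefSeq start (0). Diamonds mark the 8-base palindrome and circles the 7-base form, and colours mark the class; match centres lie between −224 and 6 bases, and Lamp1 has 4.

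The 13 members with the motif all rose, with log2 changes between 0.33 and 1.15 and a median of 0.52. The 29 tested members whose window held no match had a median of 0.74 and a range from −0.14 to 1.67, and 22 of them rose. Over all tested genes 19.4% rose. The members with the motif did not have the higher median. Of 1762 genes with a window that rose, 11.9% had CACGTG and 8.17% TCACGTG, against 11.9% and 7.13% of tested genes. A match is a string of letters in a window and was not tested as a binding site. Lysosomal genes are known for this element, so its share among the members describes the set and not the knockdown. The 11 members without a matched window were Aga, Asah1, Atp6v0a2, Atp6v0c-ps2, Atp6v0d2, Atp6v1b2, Atp6v1c1, Atp6v1g1, Atp6v1h, Galns and Npc1.

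Lysosomal genes were higher in the Tet1 knockdown across luminal proteins, membrane proteins, hydrolases and proton pump. Of 53 members tested, 43 rose and 0 fell, where 19.4% of all tested genes rose and 33.7% fell. No member was lower at an unadjusted p under 0.05 either, and limma-voom on whole reads recovered from the FPKM gave 47 rises and 0 falls (23.8 and 22.7% of all genes in that fit). Median-of-ratios scaling also gave 47 and 0 (24.9 and 23.6% of all genes), and so did the model with a replicate block (23.1 and 41.0% of all genes). The median log2 change of the tested members was 0.64, which is 0.77 above that of all genes. The groups did not overlap, with shTet1 higher, for 44 of the 55 members, where this held for 22.6% of all tested genes, and 1 member, Acp5, did not overlap with shTet1 lower (39.1% of all tested genes). The mean FPKM was at least 2-fold higher for 10 members, where 6.46% of all tested genes passed that fold. Acp5 and Atp6v1c2 stayed below 1 FPKM and so were not among the 53. With no filter neither passed the test (log2 change −0.15, limma adjusted p = 0.099 for Acp5, and −0.07, 0.495 for Atp6v1c2). The authors' deposited table called 47 of the 55 members higher and 0 lower at its adjusted p, where it called 23.7% and 22.1% of all genes.

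Taken as a share of all FPKM in a library, the members other than the pseudogene Atp6v0c-ps2 made up 0.606, 0.661 and 0.608% in shNS replicates 1, 2 and 3 and 1.21, 1.39 and 1.27% in shTet1. Psap alone held 0.147 ± 0.0187% and 0.471 ± 0.0686% (SD, n = 3 each). Without Psap the share was 0.478 ± 0.0128% in shNS and 0.819 ± 0.0247% in shTet1, so the rise of the summed level did not rest on that gene alone. The classes differed in size of change. The median log2 change was 1.25 for the 3 luminal proteins, 0.91 for the 7 membrane proteins, 0.62 for 24 hydrolases and 0.51 for 19 V-ATPase genes (1.38, 1.04, 0.75 and 0.65 relative to all genes). Across the 53 tested members, the mean level and the log2 change had a Spearman correlation of 0.37, a description over genes that share the same 6 libraries. Part of it is built in, since the mean includes the knockdown libraries and log2(FPKM + 1) understates changes of low genes. The 53 also include both Atp6v0c and Atp6v0c-ps2, whose reads were equal.

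**Figure D2:**
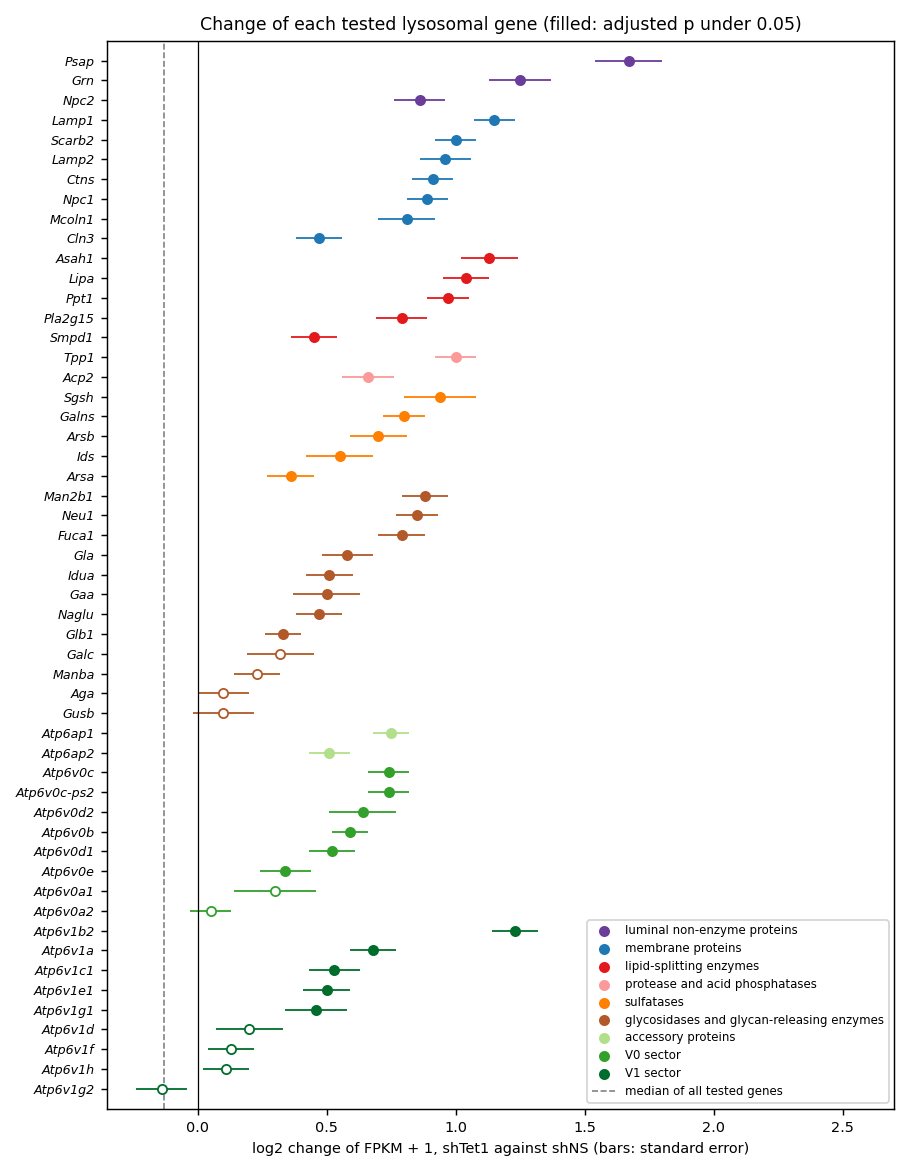
Log2 change of FPKM + 1 (shTet1 against shNS, x axis) with its limma standard error for each of the 53 tested members, coloured by role; filled circles have an adjusted p under 0.05. The dashed line is the median of all tested genes at −0.13; Psap lies farthest to the right at 1.67 and Atp6v1g2 is the single member below 0.

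**Figure D3:**
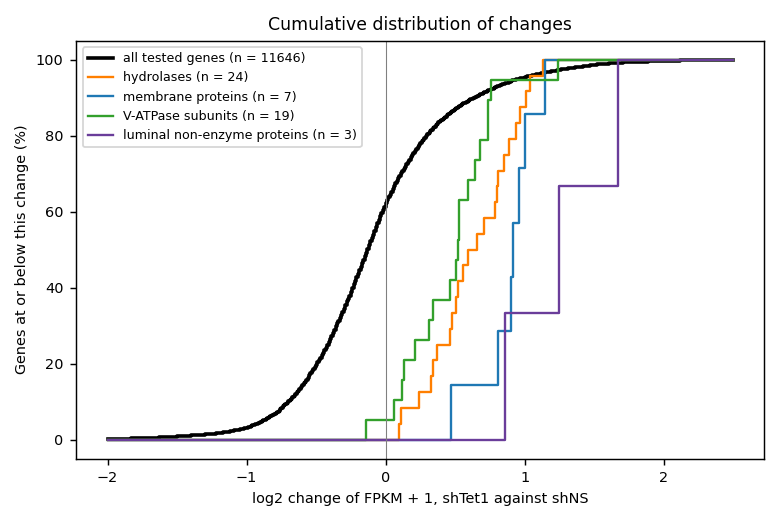
Percentage of genes (y axis) at or below each log2 change (x axis) for all 11646 tested genes and for 4 classes of lysosomal genes. The 4 classes lie to the right of the curve of all genes over most of the range, with the V-ATPase genes nearest to it and the luminal proteins farthest.

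Monocyte and macrophage markers, which the leukaemia line also expresses, moved in the same direction. Of 20 genes listed, 17 had a row and 14 were tested, and all 14 rose (median log2 change 1.64), and its summed level was 3224 to 3743 FPKM in shNS and 10978 to 16702 FPKM in shTet1. Lyz2, the lysozyme gene, made up 85.8 to 88.4% of that sum, and the other genes of the list summed to 434 to 522 FPKM in shNS and 1521 to 1938 FPKM in shTet1. Of the list's defining members, Csf1r, the receptor of a macrophage growth factor, changed by 2.23 and Mpeg1, a pore-forming protein of macrophages, by 2.05, while C1qa, C1qb and Vcam1 had no row analysed here. Stem and progenitor markers fell in 8 of 9 tested genes and rose in 0 (summed level 335 to 356 FPKM in shNS and 148 to 175 FPKM in shTet1). Among 10 neutrophil markers 5 fell and 1 rose (6594 to 8054 FPKM and 4582 to 7766 FPKM). After median-of-ratios scaling 4 of them fell and 2 rose. Of all tested genes, 33.7% fell and 19.4% rose, or 23.6% and 24.9% after scaling. Among 5 mast cell and basophil markers 4 fell and 0 rose (170 to 198 FPKM and 48.1 to 70.1 FPKM). Among 4 lymphoid markers 3 fell and 1 rose (96.6 to 120.5 FPKM and 37.9 to 60.2 FPKM), with Cd3e, Cd3g and Ms4a1 without a row analysed here. Among 3 stromal markers 2 rose and 1 fell (68.7 to 72.3 FPKM and 89.0 to 122 FPKM). Fn1 went from a mean of 19.0 to 78.3 FPKM and Acta2 from 4.67 to 6.29 FPKM, while Thy1 fell from 47.2 to 17.9 FPKM. The collagen genes Col1a1, Col1a2 and Col3a1 of that list had no row analysed here. The part of any of these lists in the lysosomal changes was not tested. In bulk RNA more cells of a type and more RNA per cell cannot be told apart.

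All 3 luminal proteins that are not hydrolases rose, and they include the largest change among the members. Psap (gene ID 19156, chromosome 10, 60277628 to 60302600, GRCm38) encodes prosaposin, the precursor of the saposins that present sphingolipids to their hydrolases. Its level was 703, 856 and 689 FPKM in the shNS libraries and 2165, 2772 and 2225 FPKM in the shTet1 libraries. The lowest knockdown library was thus far above the highest control library, and the means of 749 ± 92.6 and 2387 ± 335 FPKM (SD, n = 3 each) differed 3.19-fold, a log2 change of 1.67 (SE 0.13, limma adjusted p = 8.09e-05). Psap was also the most abundant member in every library. Grn (gene ID 14824, chromosome 11, 102430507 to 102436809) encodes progranulin, a secreted and lysosomal glycoprotein that is cut into granulins. Its levels were 183, 217 and 183 FPKM in shNS and 398, 522 and 471 FPKM in shTet1, with no overlap and a log2 change of 1.25 (SE 0.12, limma adjusted p = 0.000182). Npc2 (gene ID 67963), the soluble cholesterol carrier of the lumen, was at 95.3, 93.0 and 92.1 FPKM in shNS and 182, 182 and 149 FPKM in shTet1. It changed by 0.86 (SE 0.10, limma adjusted p = 0.000337), with shTet1 replicate 3 lowest among the knockdown libraries.

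All 7 membrane proteins rose, and for each the 3 knockdown libraries lay above the 3 control libraries. Lamp1 (gene ID 16783, chromosome 8, 13159161 to 13175338) encodes an abundant glycoprotein of the limiting membrane. It stood at 201, 218 and 207 FPKM in shNS and at 449.9, 484 and 454.9 FPKM in shTet1, a log2 change of 1.15 (SE 0.08, limma adjusted p = 5.05e-05). Its paralog Lamp2 (gene ID 16784, chromosome X, 38399647 to 38456460), which also takes part in the fusion of autophagosomes with lysosomes, was at 58.3, 56.4 and 56.9 FPKM in shNS and 127.5, 111 and 99.5 FPKM in shTet1 (log2 change 0.96, SE 0.10, limma adjusted p = 0.000241). Scarb2 (gene ID 12492, chromosome 5, 92441311 to 92505657) encodes LIMP-2, which carries beta-glucocerebrosidase to the lysosome. Its levels were 27.4, 30.7 and 28.6 FPKM in shNS and 57.8, 60.9 and 57.6 FPKM in shTet1, a log2 change of 1.00 (SE 0.08). In all 3 genes the lowest knockdown library was well above the highest control library.

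The other membrane proteins were expressed at lower levels. Npc1, the membrane partner of Npc2 in cholesterol export, rose from 10.5 ± 0.582 to 20.4 ± 0.539 FPKM (log2 change 0.89) and the cystine exporter gene Ctns from 6.35 ± 0.350 to 12.8 ± 0.453 FPKM (0.91). Mcoln1, the gene of the calcium channel mucolipin-1, rose from 11.4 ± 0.670 to 20.7 ± 2.75 FPKM (0.81). Cln3, the gene mutated in juvenile Batten disease in people, had the smallest rise of the class, from 13.8 ± 1.39 to 19.4 ± 0.322 FPKM (0.47, limma adjusted p = 0.00363).

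All 5 lipid-splitting enzymes rose. Asah1 (gene ID 11886, chromosome 8, 41340646 to 41397644), acid ceramidase, led with 51.6, 46.5 and 42.6 FPKM in shNS and 116.5, 102 and 92.7 FPKM in shTet1, a log2 change of 1.13 (SE 0.11, limma adjusted p = 0.000188). Lipa (gene ID 16889, chromosome 19, 34492316 to 34527474), the acid lipase that frees cholesterol from its esters, was at 37.7, 41.2 and 36.1 FPKM in shNS and 82.1, 84.7 and 72.8 FPKM in shTet1 (1.04, SE 0.09). Ppt1 (gene ID 19063), a thioesterase that removes fatty acids from proteins, was at 40.7, 40.0 and 40.4 FPKM and at 84.4, 81.4 and 74.2 FPKM (0.97, SE 0.08). In these 3 genes shTet1 replicate 3 was the lowest knockdown library and still stood above each control library. The phospholipase gene Pla2g15 rose by 0.79 on the log2 scale, and the sphingomyelinase gene Smpd1 rose by 0.45, from 9.35 ± 0.454 to 13.2 ± 1.21 FPKM.

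Tpp1 (gene ID 12751, chromosome 7, 105744811 to 105752282), a serine protease that clips tripeptides from the ends of proteins, was at 31.1, 30.4 and 28.6 FPKM in shNS and at 65.9, 60.6 and 57.2 FPKM in shTet1. Its groups were far apart and its log2 change was 1.00 (SE 0.08, limma adjusted p = 0.000101). The acid phosphatase gene Acp2 was at 8.87, 8.54 and 9.20 FPKM and at 16.2, 14.6 and 13.0 FPKM (0.66, SE 0.10, limma adjusted p = 0.00114). Acp5, the tartrate-resistant acid phosphatase of osteoclasts and some macrophages, went the other way at a very low level, with 0.466, 0.550 and 0.476 FPKM in shNS and 0.274, 0.382 and 0.390 FPKM in shTet1. The groups did not overlap, on 8 to 15 reads per library, but Acp5 was not called lower with limma-voom (log2 change −0.37, adjusted p = 0.389) or with no filter (−0.15, 0.099). Among the markers of osteoclasts, cells in which Acp5 and Atp6v0d2 are abundant, 1 rose and 1 fell of 4 tested genes. Ctsk went from 0.351 ± 0.0547 to 2.67 ± 0.409 FPKM, a log2 change of 1.44 that was 2.61 with a pseudocount of 0.1 and 3.01 with limma-voom, and Itgb3 changed by −0.91. The summed level of that list was 24.5 to 31.3 FPKM in shNS and 21.6 to 27.7 FPKM in shTet1. Mmp9, which was not called, held 13.3 to 19.6 FPKM of it in shNS and 10.9 to 15.5 FPKM in shTet1. Tnfrsf11a was under the filter and not tested, at 0.164 ± 0.0135 FPKM in shNS and 1.29 ± 0.394 FPKM in shTet1. Calcr, Oscar, Dcstamp and Ocstamp had no row analysed here.

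All 5 sulfatases, which remove sulfate groups from glycosaminoglycans and sulfolipids, rose. Sgsh (gene ID 27029, chromosome 11, 119343489 to 119355510), the sulfamidase of heparan sulfate breakdown, was at 4.75, 6.16 and 4.70 FPKM in shNS and at 8.91, 11.6 and 12.2 FPKM in shTet1, a log2 change of 0.94 (SE 0.14, limma adjusted p = 0.00118). Galns (gene ID 50917), which acts on keratan and chondroitin sulfate, was at 15.5, 17.1 and 14.7 FPKM and at 28.9, 27.5 and 28.1 FPKM (0.80, SE 0.08). Arsb (gene ID 11881), which acts on dermatan sulfate, was at 17.2, 14.5 and 16.7 FPKM and at 29.5, 27.2 and 24.0 FPKM (0.70, SE 0.11). In each of these the groups were separate, with more spread in the knockdown for Sgsh and Arsb than for Galns. Ids rose by 0.55, from 3.23 ± 0.544 to 5.21 ± 0.705 FPKM. Arsa, the enzyme that degrades sulfatide, rose by 0.36 (limma adjusted p = 0.00943), a call that ended without shNS replicate 3 (adjusted p = 0.0502).

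The 12 glycosidases and glycan-releasing enzymes were the least uniform of the enzyme groups, with 8 that rose and 4 that did not pass the test. Man2b1 (gene ID 17159, chromosome 8, 85082730 to 85098739), lysosomal alpha-mannosidase, was at 83.2, 90.5 and 83.0 FPKM in shNS and at 146, 172.5 and 158 FPKM in shTet1, a log2 change of 0.88 (SE 0.09, limma adjusted p = 0.000205). Neu1 (gene ID 18010, chromosome 17, 34931253 to 34937297), a sialidase, was at 17.6, 19.4 and 18.1 FPKM and at 33.8, 33.1 and 34.6 FPKM (0.85, SE 0.08). Fuca1 (gene ID 71665), which removes fucose, was at 26.3, 31.9 and 26.9 FPKM and at 47.8, 50.8 and 49.9 FPKM (0.79, SE 0.09). The knockdown libraries of Neu1 and Fuca1 lay close together and far above the controls. Smaller rises were seen in the alpha-galactosidase gene Gla (0.58), in Idua (0.51) and Naglu (0.47), which act on heparan sulfate, in the glycogen-degrading enzyme gene Gaa (0.50) and in the beta-galactosidase gene Glb1 (0.33). The call of Gaa ended without shTet1 replicate 2 (limma adjusted p = 0.0501).

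The glycosidase genes without a call included the second most abundant of them. Gusb (gene ID 110006, chromosome 5, 129989011 to 130003049), beta-glucuronidase, was at 71.2, 81.5 and 75.6 FPKM in shNS and at 68.0, 84.8 and 93.9 FPKM in shTet1. The knockdown libraries straddled the controls, and the log2 change was 0.10 (SE 0.12, limma adjusted p = 0.522) and −0.0007 without shTet1 replicate 3. For Aga, an amidase of glycoprotein breakdown, the log2 change was 0.10 and the limma adjusted p 0.419. Manba, beta-mannosidase, was at 19.2, 20.2 and 18.2 FPKM and at 21.9, 21.5 and 24.9 FPKM, with no overlap and a log2 change of 0.23 (limma adjusted p = 0.0549, and 0.0455 with the replicate number as a block). Galc, the galactosylceramidase gene, was at 2.09, 2.60 and 2.24 FPKM and at 3.33, 3.64 and 2.53 FPKM, with overlap between shNS replicate 2 and shTet1 replicate 3 (log2 change 0.32, limma adjusted p = 0.0636, and 0.0290 with the block). After median-of-ratios scaling both Manba (0.0101) and Galc (0.0353) passed the test.

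**Figure D4:**
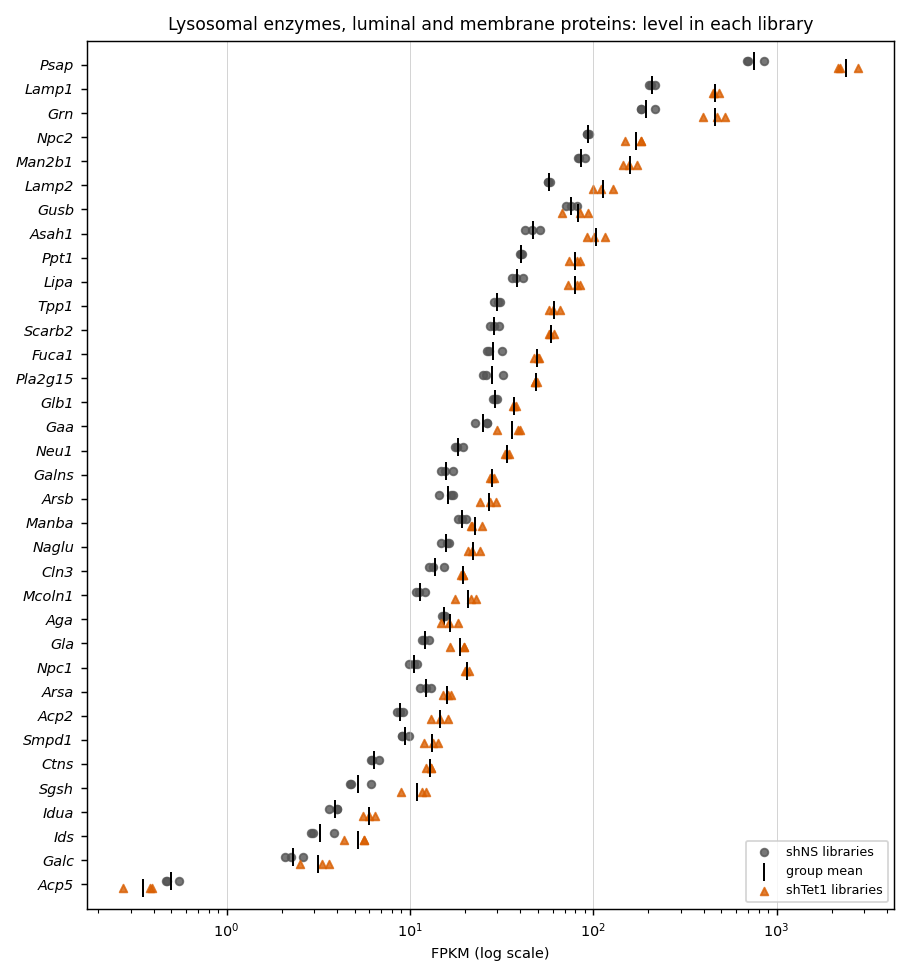
FPKM on a log scale (x axis) of the 35 hydrolases, luminal proteins and membrane proteins in the 3 shNS libraries (grey circles) and 3 shTet1 libraries (orange triangles), with vertical ticks at the group means, ordered by mean level. The triangles lie to the right of the circles for 31 of the 35 genes; the groups overlap for Gusb, Aga and Galc, and Acp5 at the bottom is lower in shTet1.

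The proton pump, like the glycosidases, did not rise in every gene. Of 19 V-ATPase genes tested, 13 rose and 0 fell, or 12 of 18 without Atp6v0c-ps2, and the level differed widely between subunits. In the V1 sector 5 of 9 tested genes rose. Atp6v1b2 (gene ID 11966, chromosome 8, 69088736 to 69113718) encodes the B subunit, which forms the ATP-splitting ring together with subunit A. It was at 68.2, 72.9 and 71.0 FPKM in shNS and at 172, 180 and 152 FPKM in shTet1, a 2.37-fold difference and a log2 change of 1.23 (SE 0.09, limma adjusted p = 5.80e-05). Atp6v1a (gene ID 11964, chromosome 16, 44085402 to 44139702), subunit A, was at 66.1, 62.0 and 59.4 FPKM and at 109.9, 96.9 and 94.8 FPKM (0.68, SE 0.09, limma adjusted p = 0.000599). Both had separate groups, but the ratio of Atp6v1b2 to Atp6v1a FPKM moved from 1.03, 1.18 and 1.19 in shNS to 1.56, 1.85 and 1.60 in shTet1, so the B transcript rose more than its ring partner in each knockdown library. Atp6v1b2 was the single V-ATPase gene with at least a 2-fold higher mean.

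Of the other V1 subunits, Atp6v1c1, whose product takes part in the reversible joining of the sectors, was at 33.1, 31.8 and 29.6 FPKM in shNS and 51.5, 40.2 and 46.6 FPKM in shTet1 (log2 change 0.53, limma adjusted p = 0.00391). The peripheral stalk genes Atp6v1e1 and Atp6v1g1 rose by 0.50 and 0.46, and the call of Atp6v1g1 ended without shNS replicate 3 (limma adjusted p = 0.0539). Atp6v1f, the most abundant V1 transcript in the controls, was at 128, 117 and 116 FPKM in shNS and at 141, 136 and 119 FPKM in shTet1, so that its groups overlapped (0.13, limma adjusted p = 0.27). The central stalk gene Atp6v1d and the regulatory subunit gene Atp6v1h also had overlapping groups, with log2 changes of 0.20 and 0.11 (limma adjusted p 0.212 and 0.329). Both were called higher with median-of-ratios scaling (0.0483 and 0.0389), and Atp6v1d with the replicate block (0.0391). The minor isoforms stayed minor. Atp6v1g2, better known from neurons, was at 1.69, 1.94 and 1.74 FPKM in shNS and 1.78, 1.43 and 1.39 FPKM in shTet1 (−0.14, limma adjusted p = 0.279), and Atp6v1c2 between 0.173 and 0.408 FPKM over all 6 libraries.

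In the V0 sector 6 of 8 tested genes rose. Atp6v0c (gene ID 11984, chromosome 17, 24163865 to 24169678) encodes the proteolipid that repeats around the rotating membrane ring, and it was the most abundant pump transcript with a protein product. It stood at 248, 274 and 251 FPKM in shNS and at 419.5, 445.5 and 422 FPKM in shTet1, a log2 change of 0.74 (SE 0.08, limma adjusted p = 0.000265). The reads of the pseudogene Atp6v0c-ps2 (chromosome 6, 37805975 to 37807107) equalled those of Atp6v0c in every library, so these reads cannot be assigned to either locus. Its listed levels were 254.9, 282 and 258 FPKM and 432, 459 and 434.9 FPKM. Atp6v0b (gene ID 114143), a second type of ring subunit, was at 118, 119 and 117 FPKM and at 177.5, 182 and 174 FPKM (0.59, SE 0.07). Its groups were far apart for their spread. Atp6v0e, a small membrane subunit, was at 144, 126 and 125 FPKM and at 183, 164 and 152 FPKM (0.34, limma adjusted p = 0.0224). That call ended when replicate 2 or 3 of shNS was left out (0.0818 and 0.0923), or replicate 2 of shTet1 (0.0615).

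Subunits d and a of the V0 sector each have isoforms among the genes analysed. Atp6v0d1, the widely expressed d subunit, was at 65.7, 73.5 and 69.1 FPKM in shNS and at 90.8, 104.8 and 105.0 FPKM in shTet1 (log2 change 0.52, limma adjusted p = 0.00202). Atp6v0d2, the d isoform of osteoclasts and macrophages, was at 1.68, 1.35 and 1.84 FPKM and at 2.81, 3.75 and 2.74 FPKM (0.64, limma adjusted p = 0.00457, and 1.06 with limma-voom). It rose but remained a small share of the summed d transcripts, at 2.49, 1.80 and 2.60% in shNS and 3.0, 3.45 and 2.55% in shTet1, and those shares overlapped. Neither Atp6v0a1 nor Atp6v0a2, which encode the a subunit that lines the proton path, passed the test. Atp6v0a1 was at 12.2, 13.8 and 14.6 FPKM and at 12.8, 19.9 and 19.0 FPKM (0.30, limma adjusted p = 0.148, and 0.0305 with the replicate block). shTet1 replicate 1 lay among the controls, and without it the log2 change was 0.49 (adjusted p = 0.00376). Atp6v0a2 was at 10.9, 11.7 and 10.9 FPKM and at 10.9, 11.7 and 12.2 FPKM (0.05, limma adjusted p = 0.607).

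The third a isoform, Tcirg1, carries another type of symbol and is not counted among the members. It rose from 56.1 to 96.6 FPKM (log2 change 0.77, limma adjusted p = 0.000288). Its share of the summed a1, a2 and a3 transcripts was 69.2, 70.4 and 68.7% in shNS and 80.1, 76.1 and 75.0% in shTet1. The a2 share went from 14.5, 13.6 and 13.4% to 9.20, 8.86 and 9.78%, with no overlap for either isoform. Both accessory proteins rose. Atp6ap1, a chaperone-like subunit of the V0 sector also called Ac45, was at 70.3, 72.2 and 69.3 FPKM and at 123, 116.5 and 120.3 FPKM (0.75, SE 0.07, limma adjusted p = 0.000152). Atp6ap2, also known as the prorenin receptor, was at 54.0, 47.6 and 52.2 FPKM and at 77.5, 71.4 and 72.0 FPKM (0.51, SE 0.08).

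**Figure D5:**
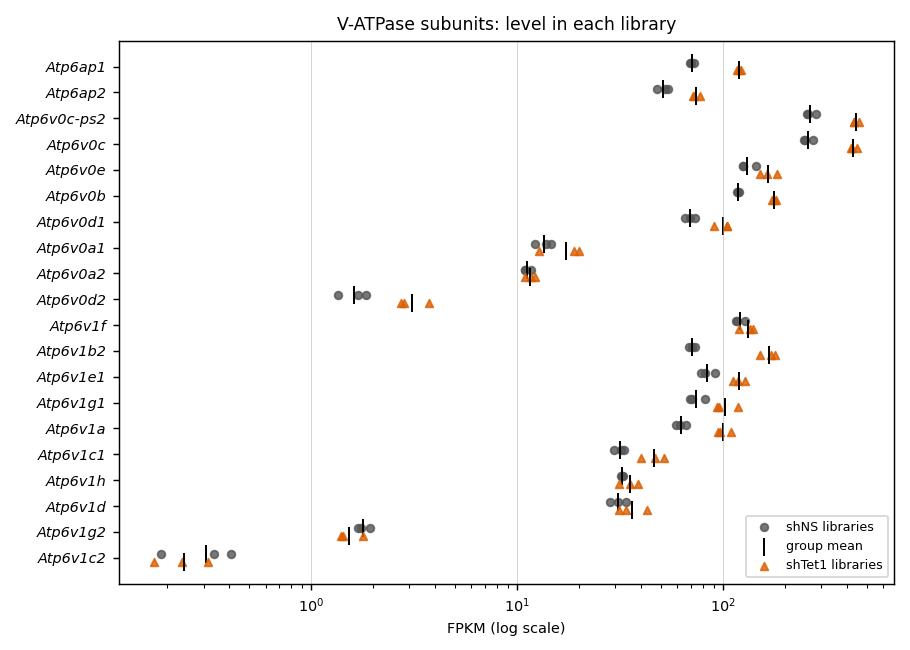
FPKM on a log scale (x axis) of the 20 V-ATPase genes in the 3 shNS libraries (grey circles) and 3 shTet1 libraries (orange triangles), with vertical ticks at the group means, in the order accessory proteins, V0 sector and V1 sector. The groups are separate for 13 genes and overlap for 7, among them Atp6v0a1, Atp6v0a2, Atp6v1f, Atp6v1h and Atp6v1d.

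Genes around the pump and the hydrolases were described from further lists. Of 11 genes for the a3 subunit and for V-ATPase assembly and regulation, 3 rose and 0 fell (5 and 0 after scaling), with a median of 0.09 on the log2 scale and 0.22 above that of all genes. Besides Tcirg1 these were Dmxl2 (0.88) and Wdr7 (0.55), whose products form the rabconnectin complex that helps the sectors join. Of 11 genes for the delivery of hydrolases, 5 rose and 1 fell (median 0.23, or 0.37 relative to all genes; 6 and 2 with the replicate block). Sort1, a sorting receptor, rose by 1.31 and Cln8, an escort of hydrolases out of the endoplasmic reticulum, by 0.91. Sumf1, which activates all sulfatases by modifying their active site, rose by 1.24. M6pr, the small mannose 6-phosphate receptor, was at means of 129.5 and 153 FPKM (0.23, limma adjusted p = 0.0374, and 0.37 after scaling), a call that ended in 5 of the 6 fits that left out a library, with shTet1 replicate 1 as the exception (adjusted p between 0.0728 and 0.121 in those 5). The large receptor Igf2r was at 0.0271 and 0.0672 FPKM, under the filter. Nagpa, which uncovers the mannose 6-phosphate tag, rose by 0.65, and the adaptor gene Gga2 changed by −0.50.

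The list of MiT/TFE transcription factors and nutrient sensing at the lysosome had 10 rises and 3 falls among 19 tested genes (12 and 1 after scaling), with a median of 0.24, which lay 0.37 above that of all genes. All 4 genes of the factor family rose. Tfec was the most abundant, from 85.4 to 155 FPKM (0.85, limma adjusted p = 0.000154), followed by Tfe3 from 7.99 to 14.1 FPKM (0.74), Tfeb from 6.17 to 10.5 FPKM (0.67) and Mitf from 3.53 to 7.34 FPKM (0.88). Fnip1, a partner of folliculin in the control of these factors, rose by 0.57. The falls were Rragb (−0.53, and −0.80 with a pseudocount of 0.1), Mtor (−0.36) and Rptor (−0.37). Rragb was low, with means of 2.30 FPKM in shNS and 1.27 FPKM in shTet1. Its more abundant paralogs Rraga (27.4 to 32.6 FPKM, log2 change 0.24) and Rragc (38.8 to 53.6 FPKM, 0.46) rose, and Rragd was under the filter. After scaling the calls of Mtor (limma adjusted p = 0.0533) and Rptor (0.0665) ended. Both were still called lower with limma-voom (adjusted p = 0.0346 and 0.0456) and with the replicate block (limma adjusted p = 0.00448 and 0.00561). Mtor was also not called without shNS replicate 3 (0.0517), nor Rptor without shNS replicate 2 or 3 (0.0554 and 0.0568).

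Lysosomal genes outside the member set went largely the same way. Of 22 other lysosomal hydrolases, 19 rose and 2 fell (19 and 0 after scaling), with a median of 0.66, which lay 0.80 above that of all genes. The exonuclease genes Pld4 and Pld3 rose by 1.55 and 1.5 and Naaa, which splits fatty acid ethanolamides, by 1.35. The 2 that fell were Arsg (−0.36) and Hyal2 (−0.38), calls that limma-voom did not make (adjusted p 0.0962 and 0.0903), and that ended after scaling (0.0949 and 0.0650) and in 3 of 6 fits each that left out a library. For Arsg the libraries left out in those fits were replicates 1 and 2 of shNS and replicate 3 of shTet1, and for Hyal2 replicates 1 and 3 of shNS and replicate 2 of shTet1. Of 28 other lysosomal membrane proteins, 18 rose and 3 fell (median 0.50, or 0.64 relative to all genes). The macrophage sialomucin gene Cd68 rose by 1.49, the peptide transporter gene Slc15a3 by 1.69 and the transporter gene Mfsd1 by 0.73. The falls were the lipid transporter gene Abca2 (−0.60), the channel gene Tpcn1 (−0.50) and the phosphoinositide phosphatase gene Tmem55b (−0.41). Genes of these lists named for their direction rather than their p, such as Tfeb, Tfe3 and those that fell, were chosen after their values were seen.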

How the data were processed

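Polyadenylated RNA was sequenced in 6 libraries, 3 per group, grouped by the sample titles. Per the labels' protocols the libraries were directional and the reads single-end, 51 bp. The submitters' processing notes name GRCm38 as the genome. The sources used here do not give the aligner or the read counter. The authors deposited a value per gene and library that is taken here as FPKM, from how the values behave, since the headers give no unit. The values divided into whole reads in 100.0% of cases (tolerance 0.001 read). Per the file headers, the deposited table also holds a mean signal per group (reads over a size factor), a fold change (ratio), its log2 value, and a p-value with its adjusted p-value.

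Changes were fitted with limma 3.58.1 in R 4.3.3, two-sided, with an intensity trend and group as the sole term, on log2(FPKM + 1), which understates changes of low genes. A gene was tested if 3 or more libraries reached 1 FPKM. Errors of levels are SD over 3 libraries, and errors of changes are standard errors. The fit was also run on simulated libraries in which far fewer genes changed than were called here. The outcome of that run is not given, and no result above rests on it. Alternatives were median-of-ratios scaling, limma-voom on recovered reads (10 or more reads in 3 or more libraries), a pseudocount of 0.1, no filter, a filter of 5 FPKM, a replicate block and leaving out each library. After removing group means, libraries sharing a number correlated at 0.61 (replicate 1), 0.36 (replicate 2) and 0.21 (replicate 3) across genes. Each was over 0.1, and the numbers were used as pairs in the fits with a replicate block. The main fit has no block. The numbers come from the sample titles, whereas the descriptions carry rep1 for every shNS and rep2 for every shTet1 library, so the values with the block rest on the titles. Across numbers, shNS replicate 2 and shTet1 replicate 3 reached 0.34, and shNS replicate 3 and shTet1 replicate 2 reached 0.14. Both are also over 0.1, so these correlations do not establish the pairs.

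Members and gene lists were chosen with earlier results of these data known. Values per library are given, per role, for up to 3 of the largest rises and falls, the 2 most abundant members and pump subunits with isoforms; of further lists, up to 3 genes with the smallest p. Positions and promoter windows are from RefSeq (GRCm38.p6).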

Additional observations from a re-analysis of the deposited data

How the results depend on the processing

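Of the 43 members that rose, 37 stayed past the test in each of the 13 alternative fits. A further 2 (Atp6v0d2 and Ids) stayed past it in 12 and were removed by the filter of 5 FPKM, and 4 (Atp6v0e, Atp6v1g1, Gaa and Arsa) lost the call when 1 library was left out. With 1 library left out in turn, the count of members that rose was 40 to 44, with 19 to 21 hydrolases, 7 membrane proteins in each case and 11 to 14 V-ATPase genes, and 0 fell. Median-of-ratios scaling, limma-voom and the replicate block gave 47 rises each, the filter of 5 FPKM 41, and the block together with scaling, chosen after seeing the data, 51. Leaving out Atp6v0c-ps2, also chosen after seeing the data, gave 42. The pseudocount of 0.1 and the absence of a filter gave 43 each. There were 8 members without a call that gained one in some alternative, and the block changed no other call of a member than those of Atp6v0a1, Atp6v1d, Galc and Manba (15 V-ATPase genes and 22 hydrolases higher). With 1 library left out in turn the log2 change of Gusb ran from −0.0007 (without shTet1 replicate 3) to 0.23 (without shTet1 replicate 1), and the cause was not tested. Depth limits Acp5 and Atp6v1c2, both below 1 FPKM in all libraries.

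Exons of Sgsh, Arsa, Arsb, Acp2 and Atp6v0b are overlapped over 21.6, 18.8, 32.3, 12.6 and 11.8% of their bases by exons of a gene on the opposite strand (GENCODE, GRCm38). The libraries keep strand, but the counting setting is not given in the sources used here. Exons of Glb1 are overlapped over 5.49% of their bases by Tmppe on the same strand, where strand cannot separate the reads. Tmppe had a mean of 8.11 FPKM over the libraries.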

Other observations

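Members were spread over the genome, with 9 of the 55 on chromosome 8 (16.4%, where 5.30% of the genes analysed with a position lie there), 5 on chromosome X (9.09%, against 3.07%) and 6 on chromosome 11 (10.9%, against 8.25%). The 9 on chromosome 8 were Aga, Asah1, Atp6v0d1, Atp6v1b2, Galns, Lamp1, Man2b1, Mcoln1 and Pla2g15. There were 3 pairs of members within 200 kb of each other. Atp6v0a1 and Naglu lie 6.37 kb apart on chromosome 11, and Naglu rose (log2 change 0.47) while Atp6v0a1 had a log2 change of 0.30 and did not pass the test (limma adjusted p = 0.148). Gaa and Sgsh, 58.0 kb apart on chromosome 11, changed by 0.50 and 0.94, and Smpd1 and Tpp1, 186 kb apart on chromosome 7, by 0.45 and 1.00. These positions are descriptions of a set chosen by function, with no test.

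For mannose 6-phosphate tagging, the transferase subunit genes Gnptab and Gnptg were at 23.7 and 8.09 FPKM in shNS and at 19.2 and 7.65 FPKM in shTet1. Neither passed the test (limma adjusted p = 0.0626 and 0.622), while 20 of 24 tested hydrolase genes rose. Gnptab was called lower with the replicate block (limma adjusted p = 0.0062). It was not called after median-of-ratios scaling (log2 change −0.16, limma adjusted p = 0.292) or with limma-voom (adjusted p = 0.276). The difference between these changes was not tested.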
